A study of Mus musculus with 24 samples.

Results

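In mice with type 2 diabetes, the ischemic gastrocnemius was compared with the normoxic adductor, using every gene of the deposited table. The 12 libraries were taken by their labels, 6 from each muscle, out of 24 libraries in 4 groups of 6. The other 12 libraries come from the same 2 muscles of control mice. All mice had a C57BL/6 strain background, and all had the femoral artery of 1 hindlimb tied below the point where the profunda femoral artery leaves it. Muscles were taken 7 days later. The labels state that growth of larger collateral arteries dominates in the adductor and growth of capillaries in the gastrocnemius. They do not say how diabetes was produced, how old the mice were, or whether same-numbered muscles belong to 1 mouse. No gastrocnemius without ischemia and no ischemic adductor is among these samples, so the identity of the muscle and its ischemia cannot be told apart. The p-values below measure only the spread between these samples.

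Skeletal muscle that loses its blood supply can lose fibres and rebuild them. Macrophages clear the dead fibres, satellite cells (the stem cells of muscle) divide, and their daughters fuse into new fibres under the transcription factors MyoD and myogenin. New fibres first use developmental forms of myosin, troponin and acetylcholine receptor, and fibroblasts lay down matrix around them. Adult fast fibres depend on glycolysis and on fast calcium pumping, and slow fibres carry the beta form of myosin.

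Values are RPKM, reads scaled to transcript length in kilobases and to the size of the library. Of 24016 gene symbols, 12382 reached 1 RPKM in at least 6 of the 24 libraries and were tested with limma on log2(RPKM + 0.5), a scale that understates changes of low genes. A gene is called where its p-value, adjusted by the Benjamini-Hochberg method over all 12382 genes, is under 0.05. Differences are gastrocnemius minus adductor with their SE, on log2 of RPKM and on log2 of RPKM divided by each library's median-of-ratios size factor ("after scaling"), and n is 6 libraries for each muscle.

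The 12 libraries held 7.13 to 15.4 M reads and between 14668 and 18081 genes above 0. A transcript of 1 kb needed 0.194 to 0.421 RPKM to be backed by 3 reads, so lower values rest on very few reads. Libraries 1 to 4 of each muscle and libraries 5 and 6 formed 2 sets that differed in Gapdh, a glycolysis enzyme, at 695 to 1757 RPKM in the first set and 3.71 to 13.7 RPKM in the second. The first principal component set the muscles apart, with 60.1% of the variance over 12382 genes, and the second set the library sets apart, with 23.6%. Each set held both muscles, 4 against 4 and 2 against 2 libraries, so the sets are balanced across the comparison. Gastrocnemius library 2 lay nearest to the adductor libraries on the first component, at 22.15 against 43.23 to 101.5 for the other 5 and -78.62 to -59.09 for adductor. Without it 7240 genes were called in place of 7051, and its values are given beside the genes below.

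A few transcripts took a large share of the reads, and a larger one in adductor. The 20 most abundant held 30.1 to 35% of reads in the adductor libraries and 12.1 to 30.2% in the gastrocnemius libraries, lowest in gastrocnemius libraries 3 and 4. In adductor the highest were Acta1 (skeletal actin, 16432 ± 6448 RPKM, mean ± SD), Ckm (muscle creatine kinase, 11434 ± 3743), the ribosomal RNA precursor Rn45s (11376 ± 5945) and Tnnt3 (fast troponin T, 8921 ± 1912). In gastrocnemius they were Acta1 (15521 ± 6458), Rn45s (10678 ± 3284), Mir6236 (8024 ± 5961), an entry listed as a microRNA gene, and Mylpf (fast myosin regulatory light chain, 7254 ± 3954). The median difference over all tested genes was 0.55 on log2 RPKM, 0.12 with the 20 most abundant transcripts left out of the library sum, and -0.04 after scaling. Size factors were 0.751 to 0.843 in adductor and 1.01 to 1.6 in gastrocnemius, with no overlap.

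**Figure D1:**
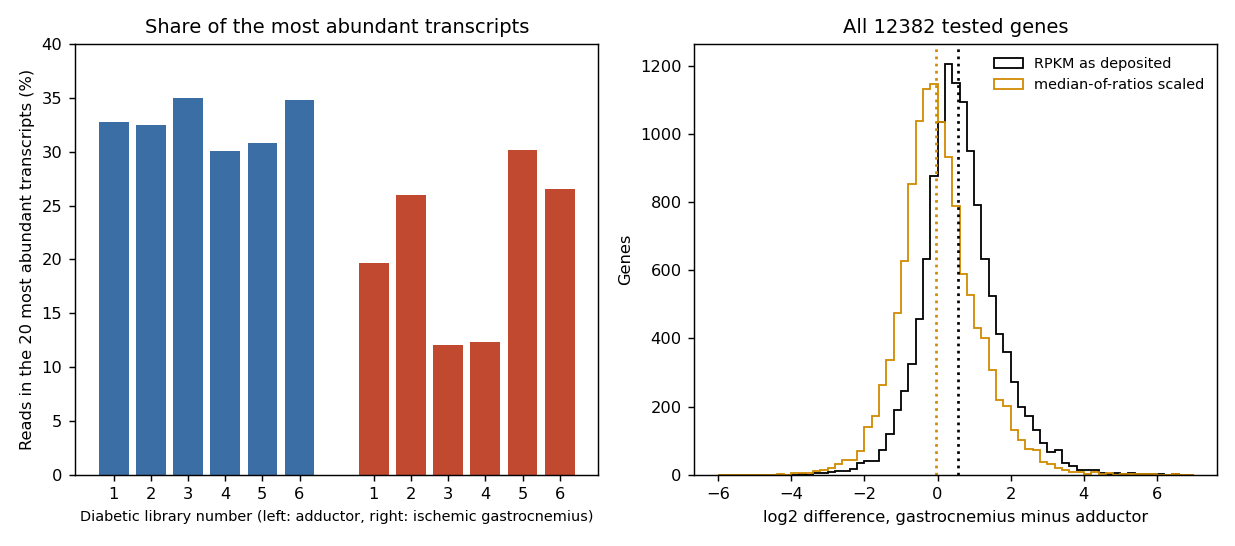
Left, percent of reads in the 20 most abundant transcripts for each of the 12 diabetic libraries (bars). Right, number of genes by log2 difference between gastrocnemius and adductor for 12382 tested genes on RPKM (black) and after median-of-ratios scaling (ochre), with dotted lines at the medians of 0.55 and -0.04; scaling moves the whole distribution to the left.

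Most genes differed between the muscles, and the scale decided the direction of many. On RPKM 5958 genes were called higher in gastrocnemius (48.1% of those tested) and 1093 lower (8.83%), 56.9% in all. After scaling 3376 were called higher (27.3%) and 3284 lower (26.5%), 53.8% in all. The counts called in each gene list below are to be read beside these shares of all genes. The same 3376 genes were called higher on both scales and the same 1093 lower on both. A further 2568 (20.7%) were called higher on RPKM only, 2177 (17.6%) lower after scaling only, and 14 (0.113%) in opposite directions. Of the calls, 84.5% were higher on RPKM, 50.7% after scaling, 61.4% when the 20 most abundant transcripts were left out of the library sum and 46.0% after quantile normalization. The RPKM values of the 2 muscles did not overlap for 3596 genes higher in gastrocnemius (29.0%) and 289 lower (2.33%), and after scaling for 2029 (16.4%) and 1602 (12.9%).

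Among genes averaging at least 5 RPKM in 1 of the muscles and called on both scales, the largest difference was that of a gene that fuses muscle precursor cells. This gene, Tmem8c, which encodes myomaker (chr2:26917157-26927681 in mm9), was at 0.237 to 1.57 RPKM (median 0.50) in adductor and 39.8 to 249.8 RPKM (median 168) in gastrocnemius. Its difference was 7.02 ± 0.58 on RPKM (adjusted p = 5.2e-09) and 6.48 ± 0.59 after scaling (adjusted p = 3.5e-08). Gm7325, which encodes the second fusion factor myomixer (chr17:45737917-45739051), was listed at 0 in 4 adductor libraries, at 0.0962 and 0.0869 RPKM in the other two, and at 7.45 to 57.3 RPKM (median 42.4) in gastrocnemius. Its difference was 6.01 ± 0.50 on RPKM (adjusted p = 5.2e-09) and 5.64 ± 0.51 after scaling (adjusted p = 3.1e-08). Neither gene's muscles overlapped, and in both the lowest gastrocnemius value was that of library 2, without which the differences on RPKM were 7.39 and 6.43.

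Myogenic regulators moved with them. Myog, which encodes myogenin, was at 2.05 to 8.86 RPKM (median 3.02) in adductor and 46.2 to 176 RPKM (median 156) in gastrocnemius, a difference of 5.02 ± 0.46 on RPKM (adjusted p = 1.4e-08) and 4.38 ± 0.45 after scaling (adjusted p = 1.2e-07). Of 15 tested satellite cell, myogenic and associated genes, 13 were called higher on RPKM and 13 after scaling, with medians of 2.43 and 1.86 against 0.55 and -0.04 for all genes. Mef2c, named after its value was seen, was called lower after scaling. Pax7, which marks satellite cells, was 1.64 ± 0.46 on RPKM and 1.14 ± 0.40 after scaling, Myf5 was 2.40 ± 0.28 on RPKM and 1.86 ± 0.25 after scaling and Myod1, which encodes MyoD, was 2.43 ± 0.37 on RPKM and 1.77 ± 0.33 after scaling, all 3 called. Myf6, the regulator most expressed in mature fibres, was not called, at 77.3 ± 60.6 RPKM in adductor and 90.2 ± 37.9 in gastrocnemius. The growth factor Igf2 stood at 6.97 to 11.4 RPKM (median 8.73) in adductor and 339 to 608 RPKM (median 519) in gastrocnemius, and Mest, a maternally imprinted gene, at 0.457 to 3.07 RPKM (median 1.24) and 78.9 to 279 RPKM (median 171). Their differences were 5.68 ± 0.45 on RPKM and 5.01 ± 0.42 after scaling for Igf2 and 6.45 ± 0.54 on RPKM and 5.86 ± 0.51 after scaling for Mest, with no overlap between the muscles. Igf2 shared 76.0% of its 31-base words with another annotated gene, so reads may have been split or lost. Pax7, Myf5, Myod1 and Myf6 are named after their values were seen.

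The developmental forms of the contractile proteins had the highest median of the 47 gene lists on both scales. Of 10 tested, 9 were called higher on RPKM and 8 after scaling, and their medians were 4.34 and 3.66. Myh3, embryonic myosin heavy chain, was at 2.22 to 37.4 RPKM (median 4.86) in adductor and 111 to 462 RPKM (median 287) in gastrocnemius. Adductor libraries 2 and 3 held 32.6 and 37.4 RPKM of it and the other 4 at most 6.55, yet the lowest gastrocnemius library held 111. Myh8, neonatal myosin heavy chain, was at 2.70 to 6.96 RPKM (median 4.32) and 156 to 386 RPKM (median 291). The differences were 4.93 ± 0.83 on RPKM (adjusted p = 2.6e-05) and 4.27 ± 0.83 after scaling (adjusted p = 1.5e-04) for Myh3 and 5.84 ± 0.41 on RPKM and 5.19 ± 0.37 after scaling for Myh8. Myl4, the embryonic and atrial light chain, reached 206 to 1069.5 RPKM (median 643) in gastrocnemius from 4.55 to 13.5 RPKM (median 8.30) in adductor, and Tnnt2, cardiac troponin T, 51.6 to 343 RPKM (median 215) from 1.26 to 6.68 RPKM (median 2.32). The light chain Myl6b differed by 4.02 ± 0.30 on RPKM and 3.35 ± 0.35 after scaling. Mybph, a myosin-binding protein named after its value was seen, was the only member called lower on both scales (-0.64 ± 0.27 on RPKM and -1.32 ± 0.24 after scaling), a call that was lost on RPKM without adductor library 2, 3, 5 or 6 or gastrocnemius library 2, 4, 5 or 6. Myh8 shared 32.5% of its words with another gene, so its level is uncertain.

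The fetal acetylcholine receptor rose in the same libraries, while the adult subunit did not. Chrng, the fetal gamma subunit, was at 0.0367 to 0.302 RPKM (median 0.116) in adductor and 8.35 to 54.9 RPKM (median 39.3) in gastrocnemius, a difference of 5.63 ± 0.43 on RPKM (adjusted p = 1.8e-09) and 5.20 ± 0.42 after scaling (adjusted p = 8.6e-09). Chrnd, the delta subunit, was at 0.967 ± 0.292 and 16.6 ± 7.32 RPKM and differed by 3.44 ± 0.30 on RPKM and 2.87 ± 0.24 after scaling. Chrna1, the alpha subunit, was at 4.27 to 17.4 RPKM (median 9.42) and 27.6 to 116 RPKM (median 96.6) and differed by 3.10 ± 0.39 on RPKM and 2.44 ± 0.38 after scaling. Chrne, the adult epsilon subunit, was not called on either scale (-0.15 ± 0.31 on RPKM and -0.74 ± 0.35 after scaling). The adhesion molecule Ncam1 (3.89 ± 0.44 on RPKM and 3.28 ± 0.38 after scaling) and the transcription factor Runx1 (2.78 ± 0.44 on RPKM and 2.19 ± 0.41 after scaling), both known to rise in denervated fibres, were also called higher. Among 16 tested genes of membrane excitability and the neuromuscular junction, 10 were called higher on RPKM and 4 lower, and after scaling 6 higher and 4 lower. The 4 lower on both scales were channels of the adult membrane, the sodium channel Scn4a (-2.42 ± 0.43 on RPKM and -3.09 ± 0.44 after scaling), the chloride channel Clcn1 (-2.27 ± 0.55 on RPKM and -2.91 ± 0.55 after scaling) and the potassium channels Kcnj2 (-1.25 ± 0.27 on RPKM and -1.88 ± 0.29 after scaling) and Kcna5 (-0.63 ± 0.22 on RPKM and -1.14 ± 0.22 after scaling). Chrna1, Chrne, Runx1 and the 4 channel genes are named after their values were seen.

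MyoD and myogenin bind DNA at the E-box, the letters CANNTG, which read the same on both strands when the middle pair is GC (CAGCTG). The 250 bases before the RefSeq start site (build GRCm38.p6) are shown for 4 genes that were higher in gastrocnemius together and, for contrast, for Ckm, which was lower. E-boxes are in capitals.
Myog (chr1:134289754-134290003, plus strand): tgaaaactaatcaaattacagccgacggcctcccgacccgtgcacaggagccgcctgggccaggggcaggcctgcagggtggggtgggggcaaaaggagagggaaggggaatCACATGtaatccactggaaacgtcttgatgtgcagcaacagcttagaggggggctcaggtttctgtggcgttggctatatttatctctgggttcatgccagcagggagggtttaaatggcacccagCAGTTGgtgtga
Chrng (chr1:87205561-87205810, plus strand): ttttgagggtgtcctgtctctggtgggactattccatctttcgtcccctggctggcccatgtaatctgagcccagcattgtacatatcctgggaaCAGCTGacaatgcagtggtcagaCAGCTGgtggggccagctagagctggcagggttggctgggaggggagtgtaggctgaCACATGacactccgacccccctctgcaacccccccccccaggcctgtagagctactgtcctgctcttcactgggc
Chrna1 (chr2:73580339-73580588, minus strand): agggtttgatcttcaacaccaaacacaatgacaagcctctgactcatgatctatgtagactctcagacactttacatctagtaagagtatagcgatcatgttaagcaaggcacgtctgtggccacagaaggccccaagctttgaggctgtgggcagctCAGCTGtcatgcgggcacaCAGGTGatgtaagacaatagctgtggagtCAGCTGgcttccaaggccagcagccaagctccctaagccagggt
Myh3 (chr11:67078050-67078299, plus strand): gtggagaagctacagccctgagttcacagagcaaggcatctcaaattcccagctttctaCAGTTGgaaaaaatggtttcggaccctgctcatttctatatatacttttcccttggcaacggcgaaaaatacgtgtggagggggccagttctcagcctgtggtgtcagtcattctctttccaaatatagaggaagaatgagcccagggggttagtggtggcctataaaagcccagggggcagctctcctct
Ckm (chr7:19410844-19411093, plus strand): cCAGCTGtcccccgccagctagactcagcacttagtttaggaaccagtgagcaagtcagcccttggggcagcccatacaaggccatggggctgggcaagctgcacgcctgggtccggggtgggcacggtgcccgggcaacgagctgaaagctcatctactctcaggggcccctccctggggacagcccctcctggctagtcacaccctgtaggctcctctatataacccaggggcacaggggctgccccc
Chrng held 3 E-boxes, 2 of them CAGCTG starting at positions -155 and -132 from the start site, and Chrna1 also held 3 with 2 CAGCTG, at -92 and -44. Myog held 2 and Myh3 held 1, none of them CAGCTG, and Ckm held 1, a CAGCTG at -249. Such letters are common. Of 27025 promoters of this length in the RefSeq table, 66% held CANNTG and 12.8% held CAGCTG. Among the 9638 tested genes matched to a promoter, CAGCTG stood in 11.8%, against 13.7% of the 2627 matched genes called higher on both scales and 13.1% of the 884 called lower on both. For CANNTG these shares were 56.8%, 59% and 59.4% in turn. A match describes these letters only.

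Among the 12 genes furthest down in gastrocnemius were channels, kinases and enzymes. Scn4b, an auxiliary sodium channel subunit (chr9:44947126-44962144 in mm9), was at 76.6 to 149 RPKM (median 102) in adductor and 2.77 to 58.6 RPKM (median 5.09) in gastrocnemius, a difference of -3.65 ± 0.66 on RPKM (adjusted p = 5.7e-05) and -4.28 ± 0.70 after scaling (adjusted p = 2.1e-05). Gastrocnemius library 2 held 58.6 RPKM and the other 5 between 2.77 and 16.3, and the muscles still did not overlap. The muscle kinase gene Mylk4 was at 78.7 to 288 RPKM (median 212) and 5.98 to 136 RPKM (median 13.1) and did overlap, since adductor library 1 held 78.7 and gastrocnemius library 2 held 136. Its difference was -3.22 ± 0.65 on RPKM and -3.89 ± 0.70 after scaling, and -3.76 on RPKM without gastrocnemius library 2. Wnk2, a kinase, Rasd2, a small GTPase, and Tuba8, an alpha tubulin, differed by -3.39 ± 0.52 on RPKM and -3.99 ± 0.53 after scaling, -3.26 ± 0.62 on RPKM and -3.87 ± 0.66 after scaling and -3.19 ± 0.78 on RPKM and -3.81 ± 0.84 after scaling. Amy1, an amylase, was -3.34 ± 0.44 on RPKM and -3.91 ± 0.44 after scaling, Ces1d, a carboxylesterase, -3.05 ± 0.64 on RPKM and -3.65 ± 0.62 after scaling, and Chac1, which breaks down glutathione, -3.05 ± 0.59 on RPKM and -3.65 ± 0.64 after scaling. Aqp4, the water channel of fast fibres, was at 7.67 ± 2.23 RPKM in adductor and 0.989 ± 1.72 in gastrocnemius (-2.90 ± 0.42 on RPKM and -3.32 ± 0.41 after scaling). Tspan8, a tetraspanin, and BC048679 complete the 12 lowest together with Myh7, at -3.19 ± 0.59 on RPKM and -3.76 ± 0.62 after scaling and -2.88 ± 0.39 on RPKM and -3.31 ± 0.38 after scaling.

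Fast-fibre contractile genes were lower in part, and none was called higher. Of 16 genes, 6 were called lower on RPKM, 10 after scaling and 10 on RPKM with same-numbered muscles taken as pairs, and the medians were -0.83 and -1.52. Myh4, the fastest myosin heavy chain, was at 2937 to 6017 RPKM (median 5117) in adductor and 904 to 3266 RPKM (median 1017) in gastrocnemius. The difference was -1.93 ± 0.37 on RPKM (adjusted p = 1.2e-04) and -2.62 ± 0.42 after scaling (adjusted p = 1.9e-05), and the highest gastrocnemius value was that of library 2 (3266), without which it was -2.21. Atp2a1, the fast calcium pump, was -1.63 ± 0.37 on RPKM and -2.31 ± 0.44 after scaling, Actn3, the fast-fibre actinin, -1.85 ± 0.34 on RPKM and -2.53 ± 0.40 after scaling, and Mybpc2, the fast myosin-binding protein C, -2.70 ± 0.52 on RPKM and -3.39 ± 0.59 after scaling. Myh2, the intermediate fast myosin, was not called, at 116 to 392 RPKM (median 259) in adductor and 54.7 to 691 RPKM (median 108) in gastrocnemius, and its difference was -1.30 in the first library set and 0.52 in the second. The fast light chains Mylpf and Myl1 and troponin C Tnnc2 were not called on either scale (0.48 ± 0.42 on RPKM and -0.20 ± 0.50 after scaling, -0.00 ± 0.34 on RPKM and -0.69 ± 0.39 after scaling and -0.49 ± 0.55 on RPKM and -1.17 ± 0.63 after scaling). With pairing, Tnnc2 was called lower after scaling (adjusted p = 0.016). Tnnt3, Tnni2 and Tpm1, all thin-filament proteins, were called after scaling only (adjusted p = 0.013, 0.036 and 0.041), and with pairing on RPKM as well (adjusted p = 0.016, 0.023 and 0.035). Ckm was lower by -1.36 ± 0.45 on RPKM and -2.05 ± 0.54 after scaling, and Acta1 was not called (-0.11 ± 0.43 on RPKM and -0.80 ± 0.49 after scaling). In bulk muscle, fewer fibres and less RNA per fibre cannot be told apart. Myh2, Myh4, Myl1 and Myh7 share 20% or more of their words with other genes.

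Slow-fibre genes split. Myh7, the beta myosin of slow fibres, was at 33.6 to 163 RPKM (median 69.2) in adductor and 2.93 to 65.3 RPKM (median 6.12) in gastrocnemius, a difference of -2.96 ± 0.83 on RPKM (adjusted p = 0.004) and -3.61 ± 0.84 after scaling (adjusted p = 8.8e-04). The muscles overlapped only through gastrocnemius library 2, at 65.3 RPKM against 2.93 to 11.7 in the other 5, and without it the difference was -3.54. The slow light chains Myl2 (-2.10 ± 0.79 on RPKM and -2.76 ± 0.85 after scaling) and Myl3 (-2.18 ± 0.66 on RPKM and -2.83 ± 0.72 after scaling) were called lower as well. Casq2, the calcium-binding protein of slow and cardiac muscle, went the other way, from 7.84 to 12.8 RPKM (median 8.57) to 81.0 to 245 RPKM (median 149), and Tnni1, slow troponin I, from 34.0 to 84.7 RPKM (median 67.5) to 279.7 to 903 RPKM (median 625). Their differences were 4.0 ± 0.34 on RPKM and 3.33 ± 0.36 after scaling and 3.14 ± 0.32 on RPKM and 2.46 ± 0.36 after scaling, with no overlap. Tnnt1, slow troponin T, was called on RPKM (1.23 ± 0.27, adjusted p = 5.4e-04) and not after scaling (0.55 ± 0.33, adjusted p = 0.17). Over the 11 slow-fibre genes 6 were called higher and 3 lower on RPKM, and 2 higher (4 with pairing) and 4 lower after scaling. Myl2 and Myl3 are named after their values were seen.

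**Figure D2:**
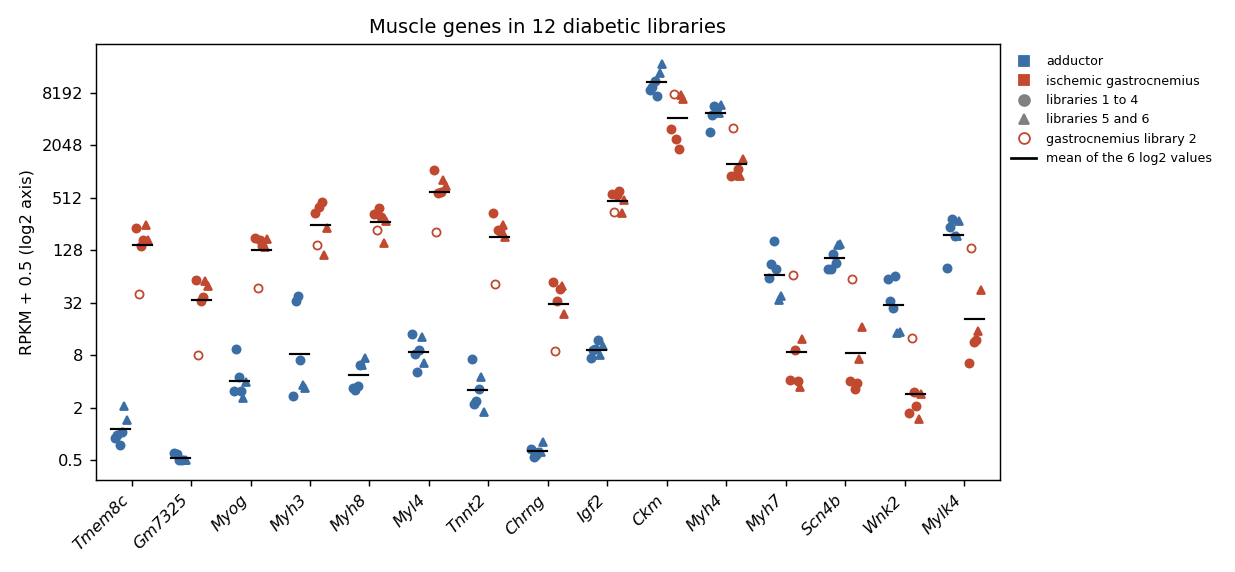
RPKM plus 0.5 (log2 axis) of 15 muscle genes in the 6 adductor (blue) and 6 gastrocnemius (red) libraries, with circles for libraries 1 to 4, triangles for libraries 5 and 6, an open circle for gastrocnemius library 2 and bars at the mean of the log2 values. Fusion, developmental and fetal genes are high in gastrocnemius and adult genes high in adductor, with gastrocnemius library 2 nearer to adductor for most of them.

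Calcium release and the sarcomere scaffold followed the adult fast genes, with named exceptions. Of 14 calcium-handling genes 8 were called lower and 2 higher on RPKM, and 12 and 1 after scaling. Cacna1s, the voltage sensor of the release channel, was at 199 ± 56.2 RPKM in adductor and 76.1 ± 49.7 in gastrocnemius (-1.50 ± 0.35 on RPKM and -2.18 ± 0.38 after scaling). Trdn, triadin, which ties the channel to its calcium store, was -1.51 ± 0.31 on RPKM and -2.19 ± 0.36 after scaling, and the kinase Camk2a -1.49 ± 0.28 on RPKM and -2.16 ± 0.32 after scaling. Sln, sarcolipin, an inhibitor of the calcium pump named after its value was seen, was higher on both scales, at 13.4 to 198 RPKM (median 31.5) in adductor and 86.6 to 528 RPKM (median 347) in gastrocnemius (2.80 ± 0.66 on RPKM and 2.12 ± 0.69 after scaling), and adductor library 1 (198) exceeded gastrocnemius libraries 2 and 4. Of 20 Z-disc and scaffold genes 9 were called lower and 2 higher on RPKM, and 11 and 2 after scaling. Myom1, an M-band protein, was -1.22 ± 0.28 on RPKM and -1.91 ± 0.33 after scaling, whereas its relative Myom3 was higher (1.90 ± 0.26 on RPKM and 1.24 ± 0.26 after scaling), as was Actn2, the actinin of slow and cardiac muscle (1.61 ± 0.30 on RPKM and 0.92 ± 0.38 after scaling).

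Of 28 glycolysis and glycogen genes 13 were called lower and 4 higher on RPKM, and 16 and 4 after scaling. The lower ones included Slc2a4, the insulin-responsive glucose transporter, at 67.3 to 157 RPKM (median 104) in adductor and 23.0 to 111 RPKM (median 38.4) in gastrocnemius (-1.29 ± 0.39 on RPKM (adjusted p = 0.0067) and -1.96 ± 0.45 after scaling (adjusted p = 8.6e-04)). Aldoa, muscle aldolase, was -1.12 ± 0.40 on RPKM and -1.81 ± 0.48 after scaling, and its call on RPKM (adjusted p = 0.02) was lost without gastrocnemius library 3 or 4, at -0.97 and -0.93. The 4 higher ones were Hk1, a hexokinase outside the insulin-responsive form, at 2.00 ± 0.189 RPKM in adductor and 11.3 ± 3.89 in gastrocnemius (2.18 ± 0.23 on RPKM and 1.57 ± 0.16 after scaling), Pfkp, the platelet phosphofructokinase (1.88 ± 0.23 on RPKM and 1.33 ± 0.16 after scaling), Pgm1 (1.96 ± 0.29 on RPKM and 1.45 ± 0.24 after scaling) and Eno1, the non-muscle enolase, named after its value was seen (2.62 ± 0.54 on RPKM and 1.95 ± 0.47 after scaling). Aldoa, Eno1 and Gapdh have near copies (34.2, 77.2 and 30.6% of words), so their levels are uncertain. Gapdh was not called (-0.42 ± 2.45 on RPKM and -1.10 ± 2.44 after scaling), and with pairing it was called lower after scaling (adjusted p = 0.0058). Eno3, the muscle enolase, and Pgam1 and Pgam2, named after their values were seen, were not called on either scale.

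Fatty acid oxidation and the citric acid cycle were lower in part, and the respiratory chain depended on the scale. Of 26 fatty acid oxidation genes 14 were called lower on RPKM and 19 after scaling, and 1 higher on RPKM only, Acads (0.65 ± 0.18 on RPKM and -0.03 ± 0.23 after scaling). The count on RPKM was 7 to 9 without adductor library 4, 5 or 6 or without gastrocnemius library 1, 3, 4 or 5. Ech1, an isomerase of the pathway, was -0.63 ± 0.18 on RPKM and -1.31 ± 0.22 after scaling, and Mlycd, which removes an inhibitor of fatty acid entry, -0.78 ± 0.23 on RPKM and -1.45 ± 0.29 after scaling. Ucp3, the muscle uncoupling protein, was at 18.1 to 45.2 RPKM (median 29.2) in adductor and 5.65 to 28.0 RPKM (median 7.26) in gastrocnemius (-1.41 ± 0.55 on RPKM (adjusted p = 0.033) and -2.07 ± 0.60 after scaling (adjusted p = 0.0057)). Its call on RPKM was lost when any 1 of adductor libraries 1, 4, 5 and 6 or gastrocnemius libraries 1, 3, 4 and 5 was left out, at -1.40 to -1.26. Of 17 citric acid cycle genes 4 were called lower on RPKM, 12 after scaling and 7 on RPKM with pairing, and 2 without adductor library 5 or 6 or gastrocnemius library 3 or 4. Pdk2, a brake on pyruvate entry, was -1.18 ± 0.27 on RPKM and -1.86 ± 0.34 after scaling, and Ogdh -0.76 ± 0.22 on RPKM and -1.44 ± 0.27 after scaling. Pdk4, a second such kinase, was not called, at 48.6 to 227 RPKM (median 106) and 22.4 to 235 RPKM (median 42.5) (-1.12 ± 0.71 on RPKM and -1.80 ± 0.77 after scaling), and with pairing its adjusted p was 0.035 on RPKM and 0.0045 after scaling. None of 42 respiratory chain genes was called by limma on RPKM, 11 were called lower after scaling and 30 lower after scaling with pairing. At an unadjusted p under 0.05, 2 of them passed on RPKM, and with pairing 3 were called higher and 3 lower. Of all genes 26.5% were called lower after scaling, and 4401 of 12382 after scaling with pairing. The median of the 42 genes was -0.05 on RPKM and -0.73 after scaling, against 0.55 and -0.04 for all genes. Sdha, of complex II, was -0.48 ± 0.23 on RPKM and -1.17 ± 0.28 after scaling and called after scaling (adjusted p = 0.0011).

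Genes of muscle atrophy were called in both directions. The ubiquitin ligase Fbxo32, known as atrogin-1, was at 44.3 to 169 RPKM (median 62.0) in adductor and 6.78 to 23.9 RPKM (median 13) in gastrocnemius, and myostatin, Mstn, the inhibitor of muscle growth, at 11.4 to 22.9 RPKM (median 17.1) and 1.34 to 9.44 RPKM (median 2.15). Neither gene's muscles overlapped, and the differences were -2.42 ± 0.37 on RPKM (adjusted p = 7.4e-06) and -3.09 ± 0.41 after scaling (adjusted p = 1.8e-06) for Fbxo32 and -2.44 ± 0.39 on RPKM and -3.04 ± 0.43 after scaling for Mstn. Cdkn1a, a cell cycle inhibitor in the same list that also rises in differentiating myoblasts, was higher, at 7.87 to 58.0 RPKM (median 14.1) and 55.9 to 324 RPKM (median 228) (3.34 ± 0.49 on RPKM and 2.66 ± 0.48 after scaling), and overlapped through adductor library 1 (58.0) and gastrocnemius library 2 (55.9). Of 16 listed genes 6 were called lower and 5 higher on RPKM, and 7 and 2 after scaling (4 higher after scaling with pairing). Of all genes 8.83% were called lower and 48.1% higher on RPKM, and 26.5% and 27.3% after scaling.

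Macrophage genes were higher in gastrocnemius by a wide margin. Of 21 macrophage genes 20 were called higher on RPKM and 18 after scaling, with medians of 2.81 and 2.19. Ms4a7, a macrophage membrane protein, was at 1.11 to 2.11 RPKM (median 1.57) in adductor and 21.7 to 63.0 RPKM (median 58.3) in gastrocnemius (4.57 ± 0.41 on RPKM (adjusted p = 1.4e-08) and 3.97 ± 0.39 after scaling (adjusted p = 8.1e-08)). Tyrobp, an adaptor of myeloid receptors, was 3.99 ± 0.41 on RPKM and 3.32 ± 0.39 after scaling and Laptm5 3.50 ± 0.35 on RPKM and 2.84 ± 0.31 after scaling. Cd163, a marker of resident macrophages named after its value was seen, was not called on RPKM (-0.35 ± 0.38) and was lower after scaling (-0.94 ± 0.33, adjusted p = 0.019). The summed RPKM of 6 defining macrophage markers was 45.2 to 90.7 in adductor and 427 to 1217 in gastrocnemius. For 4 neutrophil markers it was 1.19 to 10.8 and 2.47 to 12.7, which overlap, and for 3 T cell markers 0.0784 to 0.585 and 0.990 to 3.11. How far these cells account for other differences was not tested.

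Genes of macrophages that take up dead cells and lipid were among the furthest apart. Spp1, osteopontin, was at 1.0 to 3.03 RPKM (median 2.09) in adductor and 23.5 to 240.2 RPKM (median 114) in gastrocnemius, a difference of 5.39 ± 0.59 on RPKM (adjusted p = 1.2e-07) and 4.77 ± 0.55 after scaling (adjusted p = 4.5e-07). Trem2, a lipid receptor of phagocytes, was at 0.535 to 2.94 RPKM (median 1.74) and 23.5 to 91.7 RPKM (median 79.3), and Gpnmb, a glycoprotein of phagocytes, at 1.53 to 6.03 RPKM (median 3.35) and 39.9 to 105 RPKM (median 69.4). No muscle overlapped for these 3 genes, and the lowest gastrocnemius value of each was in library 2, without which the differences on RPKM were 5.82, 5.21 and 4.39. The C1q chains C1qa, C1qb and C1qc, which start the complement cascade, were 3.49 ± 0.41 on RPKM and 2.81 ± 0.41 after scaling, 3.75 ± 0.40 on RPKM and 3.07 ± 0.39 after scaling and 3.51 ± 0.37 on RPKM and 2.83 ± 0.35 after scaling. Of 23 such genes 21 were called higher on RPKM and 20 after scaling, where Lpl and Syngr1, named after their values were seen, were called lower. Of 23 lysosomal genes 19 and 15 were called higher and 1 lower on either scale, with Lgmn, a protease, at 3.42 ± 0.33 on RPKM and 2.74 ± 0.30 after scaling. Glb1, the lysosomal galactosidase, was 2.82 ± 0.27 on RPKM and 2.24 ± 0.21 after scaling, and Atp6v0d2, a proton pump subunit of osteoclasts and macrophages, 2.56 ± 0.24 on RPKM and 2.11 ± 0.23 after scaling.

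Signals that draw and instruct immune cells were higher as well. Of 20 chemokines and receptors 18 were called higher on RPKM and 15 after scaling, where Ccl11, named after its value was seen, was called lower. Cxcl16 was at 0.924 ± 0.345 RPKM in adductor and 23.7 ± 7.00 in gastrocnemius (4.05 ± 0.34 on RPKM and 3.48 ± 0.32 after scaling), the receptor Cxcr4 3.76 ± 0.32 on RPKM and 3.18 ± 0.27 after scaling, and Ccl5 2.73 ± 0.33 on RPKM and 2.21 ± 0.34 after scaling. Of 19 interferon-stimulated genes 18 and 16 were called higher, among them the regulator Irf7 (2.62 ± 0.34 on RPKM and 1.98 ± 0.29 after scaling), Bst2 (2.70 ± 0.35 on RPKM and 2.03 ± 0.36 after scaling) and Mx1 (1.98 ± 0.25 on RPKM and 1.6 ± 0.20 after scaling), both antiviral. Of 15 antigen presentation genes 14 were called higher on RPKM and 14 after scaling, such as H2-DMa (2.00 ± 0.23 on RPKM and 1.40 ± 0.22 after scaling), which loads class II molecules, and Tapbp (1.65 ± 0.19 on RPKM and 0.98 ± 0.15 after scaling), which loads class I. Cd4 rose from 0.191 ± 0.0400 to 2.74 ± 0.926 RPKM, a level that macrophages and T cells can both give, and the lymphocyte granule genes Gzma (1.85 ± 0.26 on RPKM and 1.47 ± 0.26 after scaling) and Nkg7 (1.83 ± 0.28 on RPKM and 1.44 ± 0.28 after scaling) were low in both muscles and called higher. S100a9, a neutrophil protein, was not called (0.32 ± 0.64 on RPKM and -0.14 ± 0.66 after scaling), nor were the mast cell proteases Tpsb2 (0.40 ± 0.26 on RPKM and -0.21 ± 0.23 after scaling) and Cma1 (0.39 ± 0.30 on RPKM and -0.21 ± 0.27 after scaling). With pairing, Tpsb2 was called higher on RPKM (adjusted p = 0.035). Itgax, found on dendritic cells and macrophages, was 3.21 ± 0.30 on RPKM and 2.77 ± 0.26 after scaling.

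Every collagen chain tested was higher in gastrocnemius on both scales. The count was 18 of 18, with medians of 3.41 on RPKM and 2.75 after scaling, and it was 18 within each library set and with any 1 of the 12 libraries left out. Col1a1, the main fibrillar chain, was at 31.3 to 113 RPKM (median 39.4) in adductor and 453 to 2479 RPKM (median 895) in gastrocnemius. Adductor library 4 held 113 and the lowest gastrocnemius library, 5, held 453, so the muscles did not overlap, and the difference was 4.53 ± 0.56 on RPKM (adjusted p = 5.9e-07) and 3.85 ± 0.50 after scaling (adjusted p = 1.8e-06). Col5a3 was 3.34 ± 0.35 on RPKM and 2.70 ± 0.29 after scaling, and the pericellular chains Col6a1 and Col6a2 3.27 ± 0.35 on RPKM and 2.59 ± 0.30 after scaling and 3.47 ± 0.34 on RPKM and 2.79 ± 0.30 after scaling. Of 24 matrix glycoproteins 23 were called higher on RPKM and 19 after scaling. Postn, periostin, a matrix protein of injured tissue, was at 2.86 to 16.5 RPKM (median 5.24) and 200.0 to 928 RPKM (median 354) (5.91 ± 0.63 on RPKM and 5.25 ± 0.59 after scaling), and Mgp, which holds back calcification, at 28.4 to 62.1 RPKM (median 44.7) and 401 to 1146 RPKM (median 620.0) (3.90 ± 0.37 on RPKM and 3.22 ± 0.42 after scaling). C1qtnf3, a secreted protein also called cartonectin, was at 0.880 ± 0.561 and 71.9 ± 44.5 RPKM (5.55 ± 0.57 on RPKM and 5.0 ± 0.53 after scaling).

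Enzymes that build and cut matrix changed too. Of 15 collagen-processing genes 14 were called higher on RPKM and 13 after scaling, where P4ha1, named after its value was seen, was called lower. The higher ones included the chaperones Serpinh1 (2.98 ± 0.35 on RPKM and 2.30 ± 0.28 after scaling) and Fkbp10 (4.22 ± 0.37 on RPKM and 3.61 ± 0.34 after scaling), the crosslinking enzyme Loxl1 (3.40 ± 0.31 on RPKM and 2.74 ± 0.26 after scaling) and the procollagen enhancer Pcolce (2.82 ± 0.28 on RPKM and 2.15 ± 0.25 after scaling). Of 21 matrix proteases and inhibitors 18 and 16 were called higher and 2 lower on either scale. Mmp13, a collagenase, was listed below 0.210 RPKM in 5 adductor libraries and at that value in the other, and at 8.18 to 32.2 RPKM (median 13.3) in gastrocnemius (4.82 ± 0.30 on RPKM (adjusted p = 2.6e-10) and 4.44 ± 0.34 after scaling (adjusted p = 6.9e-09)). Mmp14, the membrane collagenase, was 3.60 ± 0.33 on RPKM and 2.93 ± 0.28 after scaling. The inhibitors parted, with Timp1 at 0.50 to 2.83 RPKM (median 1.75) in adductor and 11.1 to 131 RPKM (median 59.7) in gastrocnemius (4.82 ± 0.53 on RPKM and 4.23 ± 0.53 after scaling), and Timp3 (-0.68 ± 0.21 on RPKM and -1.35 ± 0.23 after scaling) and Timp4 (-1.48 ± 0.45 on RPKM and -2.03 ± 0.49 after scaling) lower, both named after their values were seen. Mmp9, the gelatinase of neutrophils and macrophages, was called on RPKM (1.23 ± 0.52, adjusted p = 0.048) and not after scaling, and lost the call without any 1 of 10 of the 12 libraries, all but gastrocnemius libraries 2 and 6, at 1.0 to 1.28.

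Of 11 tendon and cartilage genes 11 were called higher on either scale, and for 10 of them the muscles did not overlap on both scales, against 16.4% of all tested genes. These 11 are the tested members of 14 listed. A gene as low in adductor as Tnmd passed the filter through other libraries, so the counts lean towards higher. Tnmd, tenomodulin, made by tendon cells, was at 0.170 to 0.929 RPKM (median 0.397) in adductor and 6.48 to 19.2 RPKM (median 12.6) in gastrocnemius, a difference of 3.74 ± 0.25 on RPKM (adjusted p = 3.3e-10) and 3.25 ± 0.28 after scaling (adjusted p = 1.6e-08). Comp (4.27 ± 0.36 on RPKM and 3.78 ± 0.34 after scaling) and Thbs4 (4.03 ± 0.31 on RPKM and 3.35 ± 0.25 after scaling) bind collagen in tendon. The summed RPKM of 3 defining tendon markers, Tnmd, Scx and Fmod, was 4.72 to 16.2 in adductor and 62.7 to 139 in gastrocnemius. These markers move with the collagen and matrix genes above, and their part in them was not tested. Of 17 fibroblast genes 9 were called higher on RPKM, and 6 higher and 1 lower (Ccl11) after scaling (3 lower with pairing), against 48.1% of all genes higher on RPKM and 27.3% after scaling. Those called higher included Mfap5 (3.37 ± 0.32 on RPKM and 2.72 ± 0.32 after scaling), Thy1 (2.64 ± 0.35 on RPKM and 1.99 ± 0.33 after scaling) and Fap (2.05 ± 0.26 on RPKM and 1.45 ± 0.24 after scaling).

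Cell division genes were low in adductor and raised in gastrocnemius. All 27 tested were called higher on RPKM and 25 after scaling, with medians of 2.64 and 2.16. Of all genes 48.1% were called higher on RPKM and 27.3% after scaling. Some of the 27, such as Ccna2 and Cdk1, were under 1 RPKM in every adductor library and passed the filter through other libraries. Such genes could hardly have been called lower, so the count leans towards higher. Ccna2, cyclin A, was at 0.0832 to 0.641 RPKM (median 0.284) in adductor and 2.49 to 14.6 RPKM (median 9.17) in gastrocnemius, Cdk1, the mitotic kinase, at 0.0811 to 0.157 RPKM (median 0.113) and 1.62 to 8.13 RPKM (median 5.98), and Ube2c, which works with the mitotic ubiquitin ligase, at 0.209 to 1.17 RPKM (median 0.694) and 4.43 to 20.5 RPKM (median 15.7). None of the 3 overlapped between muscles, and the differences were 3.39 ± 0.37 on RPKM and 2.93 ± 0.33 after scaling, 3.13 ± 0.34 on RPKM and 2.74 ± 0.29 after scaling and 3.45 ± 0.38 on RPKM and 2.92 ± 0.34 after scaling. The files do not say which cells were dividing.

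Of the vascular genes, the main VEGF ligand and its receptors were not called higher on either scale. Vegfa, the main angiogenic ligand, was at 9.49 to 33.7 RPKM (median 14.5) in adductor and 7.56 to 20.1 RPKM (median 10.6) in gastrocnemius, a difference of -0.58 ± 0.30 on RPKM (adjusted p = 0.11) and -1.24 ± 0.34 after scaling (adjusted p = 0.0036). The muscles overlapped, and the difference was -0.12 in the first library set, where adductor held 9.49 to 16.7 RPKM, and -1.52 in the second, where it held 29.1 and 33.7. Without adductor library 4 or gastrocnemius library 2 it was -0.75 on RPKM, with adjusted p of 0.043 and 0.039. Vegfa was also called lower on RPKM with its longest transcript and in the second library set alone. The same held with the 20 most abundant transcripts left out of the library sum and after quantile normalization. Kdr, the main VEGF receptor, was at 4.12 to 7.13 RPKM (median 5.88) and 2.11 to 8.94 RPKM (median 4.80) and was not called (-0.28 ± 0.42 on RPKM (adjusted p = 0.6) and -0.90 ± 0.38 after scaling (adjusted p = 0.05)), and with pairing after scaling it was (adjusted p = 0.0038). Flt1, the decoy receptor, was -0.59 ± 0.32 on RPKM (adjusted p = 0.12) and -1.22 ± 0.30 after scaling (adjusted p = 0.0015), called on RPKM with pairing (adjusted p = 0.0037) and without gastrocnemius library 2 (-0.76, adjusted p = 0.046). Figf, VEGF-D, was lower on both scales (-0.75 ± 0.18 on RPKM (adjusted p = 0.0011) and -1.34 ± 0.15 after scaling (adjusted p = 3.7e-07)).

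Apln and Aplnr, the apelin ligand and receptor of sprouting endothelium, were at 0.546 ± 0.438 and 2.53 ± 0.817 RPKM in adductor and 4.80 ± 1.76 and 13.1 ± 6.39 in gastrocnemius. Their differences were 2.36 ± 0.32 on RPKM (adjusted p = 2.1e-06) and 1.88 ± 0.30 after scaling (adjusted p = 1.7e-05) and 2.07 ± 0.33 on RPKM (adjusted p = 1.5e-05) and 1.45 ± 0.28 after scaling (adjusted p = 1.2e-04). Plvap, a protein of leaky capillaries, was 1.66 ± 0.26 on RPKM and 1.0 ± 0.24 after scaling, and the co-receptor Nrp1 1.42 ± 0.20 on RPKM and 0.75 ± 0.15 after scaling. Of 22 endothelial genes 13 were called higher and 1 lower on RPKM, but 4 and 4 after scaling (3 lower on RPKM with pairing, 2 without gastrocnemius library 2), with medians of 0.80 and 0.13 against 0.55 and -0.04 for all genes. The summed RPKM of 4 endothelial markers (Pecam1, Cdh5, Kdr and Tie1) was 37.3 to 66.9 in adductor and 74.3 to 113 in gastrocnemius. This sum was not taken after scaling. Scaling divides by size factors of 0.751 to 0.843 in adductor and 1.01 to 1.6 in gastrocnemius, so it brings the 2 ranges closer. Of 32 angiogenic signalling genes 16 were called higher and 2 lower on RPKM (4 lower without gastrocnemius library 2), and 10 and 7 after scaling (11 lower with pairing). The share called higher was near that of all genes, 48.1% on RPKM and 27.3% after scaling. Dll4, Angpt2 and Flt4, which also act in vessel growth and are named after their values were seen, were not called on either scale. Tgfb1 (3.02 ± 0.33 on RPKM and 2.37 ± 0.26 after scaling) and Pdgfc (1.93 ± 0.29 on RPKM and 1.43 ± 0.23 after scaling), named by the rule for their small p, were higher on both scales. Smooth muscle actin, Acta2, was at 14.9 to 32.6 RPKM (median 19.6) and 45.7 to 192 RPKM (median 163) (2.61 ± 0.39 on RPKM and 1.94 ± 0.36 after scaling), and it is made by myofibroblasts and immature muscle as well as by vessels. Smtn (1.55 ± 0.21 on RPKM and 0.87 ± 0.22 after scaling) and Mcam (1.76 ± 0.23 on RPKM and 1.10 ± 0.17 after scaling) were higher too. Myh11, Cnn1, Lmod1 and Abcc9, genes of smooth muscle and pericytes named after their values were seen, were called lower on both scales (-0.86, -0.48, -1.11 and -0.98 on RPKM). Of 15 smooth muscle and pericyte genes 7 were called higher and 4 lower on RPKM (2 lower without adductor library 4 or gastrocnemius library 5), and 5 and 6 after scaling. Of all genes 48.1% were called higher and 8.83% lower on RPKM, and 27.3% and 26.5% after scaling.

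Genes that low oxygen induces were called in both directions on day 7. Of 19 tested, 5 were called higher and 6 lower on RPKM, 7 and 6 with pairing, 3 and 10 after scaling, and the medians were 0.08 and -0.53. Of all genes 48.1% were called higher and 8.83% lower on RPKM, and 27.3% and 26.5% after scaling. Pfkfb3, a driver of glycolysis, was at 33.2 to 64.4 RPKM (median 48.6) in adductor and 5.74 to 23.7 RPKM (median 10.6) in gastrocnemius, and Egln1, the oxygen sensor that marks HIF for removal, at 39.8 to 90.9 RPKM (median 53.5) and 15.4 to 39.3 RPKM (median 20.1). Neither overlapped between muscles, and the differences were -2.13 ± 0.34 on RPKM (adjusted p = 1.2e-05) and -2.79 ± 0.35 after scaling (adjusted p = 1.0e-06) and -1.40 ± 0.25 on RPKM and -2.07 ± 0.28 after scaling. Hif1a itself was higher (1.38 ± 0.30 on RPKM (adjusted p = 3.8e-04) and 0.73 ± 0.23 after scaling (adjusted p = 0.01)), and so were Hmox1, heme oxygenase, at 4.44 to 8.43 RPKM (median 5.74) and 8.64 to 50.7 RPKM (median 35.2) (2.25 ± 0.50 on RPKM and 1.59 ± 0.47 after scaling), and Angptl4 (2.33 ± 0.53 on RPKM and 1.72 ± 0.52 after scaling), the last pair named after their values were seen.

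**Figure D3:**
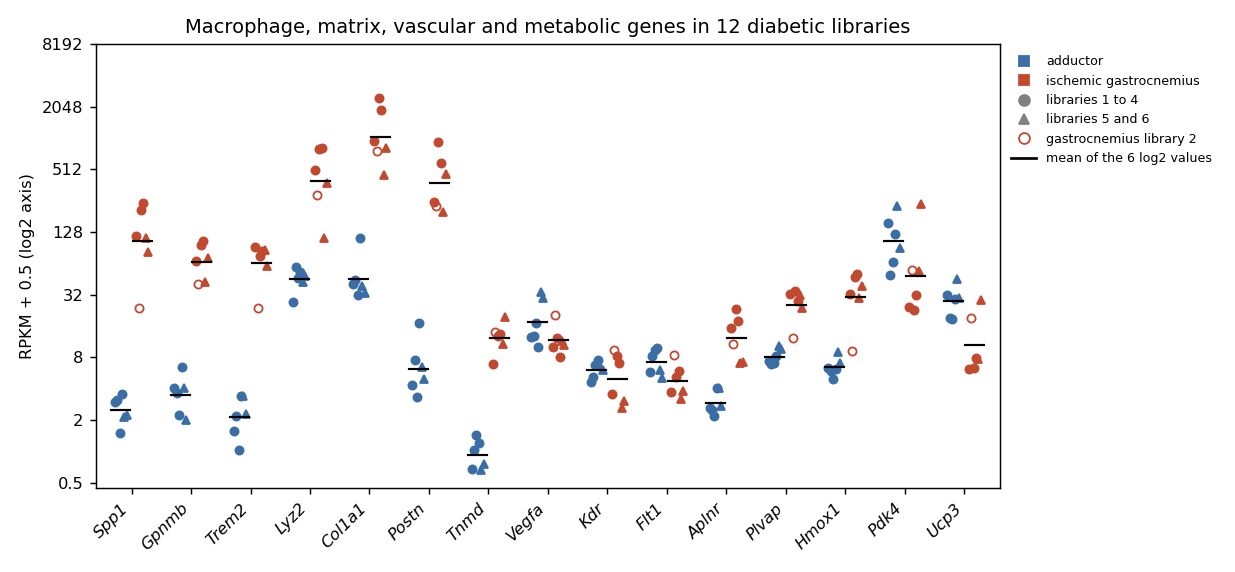
RPKM plus 0.5 (log2 axis) of 15 macrophage, matrix, vascular and metabolic genes in the 12 diabetic libraries, drawn with the same colours, symbols and bars as for the muscle genes. Macrophage and matrix genes separate the muscles, whereas Vegfa, Kdr, Flt1, Pdk4 and Ucp3 overlap.

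Of 20 insulin and IGF genes 11 were called higher and 2 lower on RPKM, and 6 and 5 after scaling (4 lower on RPKM with pairing), shares near those of all genes (48.1% higher on RPKM, 27.3% higher and 26.5% lower after scaling). Igfbp2 was at 0.219 ± 0.151 RPKM in adductor and 6.01 ± 2.49 in gastrocnemius (3.08 ± 0.28 on RPKM and 2.66 ± 0.29 after scaling), and Igfbp4 at 30.0 ± 6.49 and 196 ± 45 (2.68 ± 0.25 on RPKM and 2.00 ± 0.22 after scaling). Fstl1, a secreted follistatin relative, was 3.21 ± 0.35 on RPKM and 2.53 ± 0.32 after scaling, and the stress hormone Gdf15 1.84 ± 0.28 on RPKM and 1.46 ± 0.27 after scaling. Of 18 lipid synthesis genes 8 were called higher and 2 lower on RPKM and 7 and 3 after scaling (5 lower with pairing). Of all genes 48.1% were called higher and 8.83% lower on RPKM, and 27.3% and 26.5% after scaling. Fdft1, the squalene-forming step of cholesterol synthesis, was at 11.2 to 14.3 RPKM (median 13) in adductor and 2.63 to 8.48 RPKM (median 4.77) in gastrocnemius (-1.38 ± 0.21 on RPKM and -2.01 ± 0.20 after scaling), with no overlap. Acacb, which makes the inhibitor of fatty acid entry in muscle, was -2.13 ± 0.40 on RPKM and -2.78 ± 0.45 after scaling. Adipoq, adiponectin of fat cells, was not called, at 7.73 to 29.7 RPKM (median 13.9) and 6.02 to 67.2 RPKM (median 26.5), and its difference was 1.47 in the first library set and -0.53 in the second. The summed RPKM of 3 fat cell markers was 15.9 to 50.7 and 9.37 to 127, which overlap.

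Patterning and clock genes also set the muscles apart. The T-box factors Tbx4 and Tbx18 were at 0.936 ± 0.456 and 0.394 ± 0.209 RPKM in adductor and 4.97 ± 1.88 and 2.48 ± 0.957 in gastrocnemius (1.90 ± 0.27 on RPKM and 1.36 ± 0.25 after scaling and 1.71 ± 0.24 on RPKM and 1.26 ± 0.19 after scaling). Irx5, a homeobox factor, was at 1.88 to 5.48 RPKM (median 2.34) in adductor and 0.0584 to 0.519 RPKM (median 0.225) in gastrocnemius, a difference of -2.04 ± 0.22 on RPKM (adjusted p = 1.0e-07) and -2.44 ± 0.20 after scaling (adjusted p = 1.2e-08), with no overlap. Of 23 Hox and limb factors 5 were called higher and 9 lower on RPKM, and 3 and 13 after scaling. Of 16 clock genes 7 were called lower on RPKM, 13 after scaling and 1 higher on either. Dbp and Hlf, output factors of the clock, were -0.97 ± 0.24 on RPKM and -1.65 ± 0.29 after scaling and -1.26 ± 0.30 on RPKM and -1.76 ± 0.30 after scaling, and the nuclear receptor Rora was -1.48 ± 0.23 on RPKM and -2.13 ± 0.29 after scaling. The labels give no hour of collection.

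Counts of ribosomal protein and proteasome genes changed with the scale and with pairing. Of 26 ribosomal protein genes 7 were called higher on RPKM (12 and 11 without gastrocnemius library 5 or 6), 2 after scaling, and with pairing 24 and 19. Of all genes 48.1% were called higher on RPKM and 27.3% after scaling, and with pairing 7025 and 4104 of 12382. Called lower were 8.83% of all genes on RPKM and 26.5% after scaling, and with pairing 1473 of 12382 on RPKM. Rps14 was 1.36 ± 0.28 on RPKM (adjusted p = 2.8e-04) and 0.67 ± 0.28 after scaling (adjusted p = 0.043), and many ribosomal protein genes have near copies. Of 27 proteasome genes 1 was called higher on RPKM, Psma5 (0.95 ± 0.36 on RPKM and 0.28 ± 0.34 after scaling), and 12 lower after scaling. With pairing 9 were called higher and 2 lower on RPKM, and leaving out adductor library 1 or gastrocnemius library 2 gave 6 and 3 higher. Psma5 lost its call without adductor library 5 or 6 or gastrocnemius library 1, 3 or 4, at 0.69 to 0.89. It shared 64.0% of its 31-base words with another gene, so its level is uncertain. Of 18 endoplasmic reticulum chaperones 15 were called higher on RPKM and 11 after scaling, with Pdia3 at 13.5 ± 1.55 RPKM in adductor and 72.7 ± 28.0 in gastrocnemius (2.30 ± 0.28 on RPKM and 1.63 ± 0.22 after scaling), Pdia6 at 1.90 ± 0.29 on RPKM and 1.23 ± 0.26 after scaling and Creld2 at 1.55 ± 0.24 on RPKM and 0.93 ± 0.22 after scaling.

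**Figure D4:**
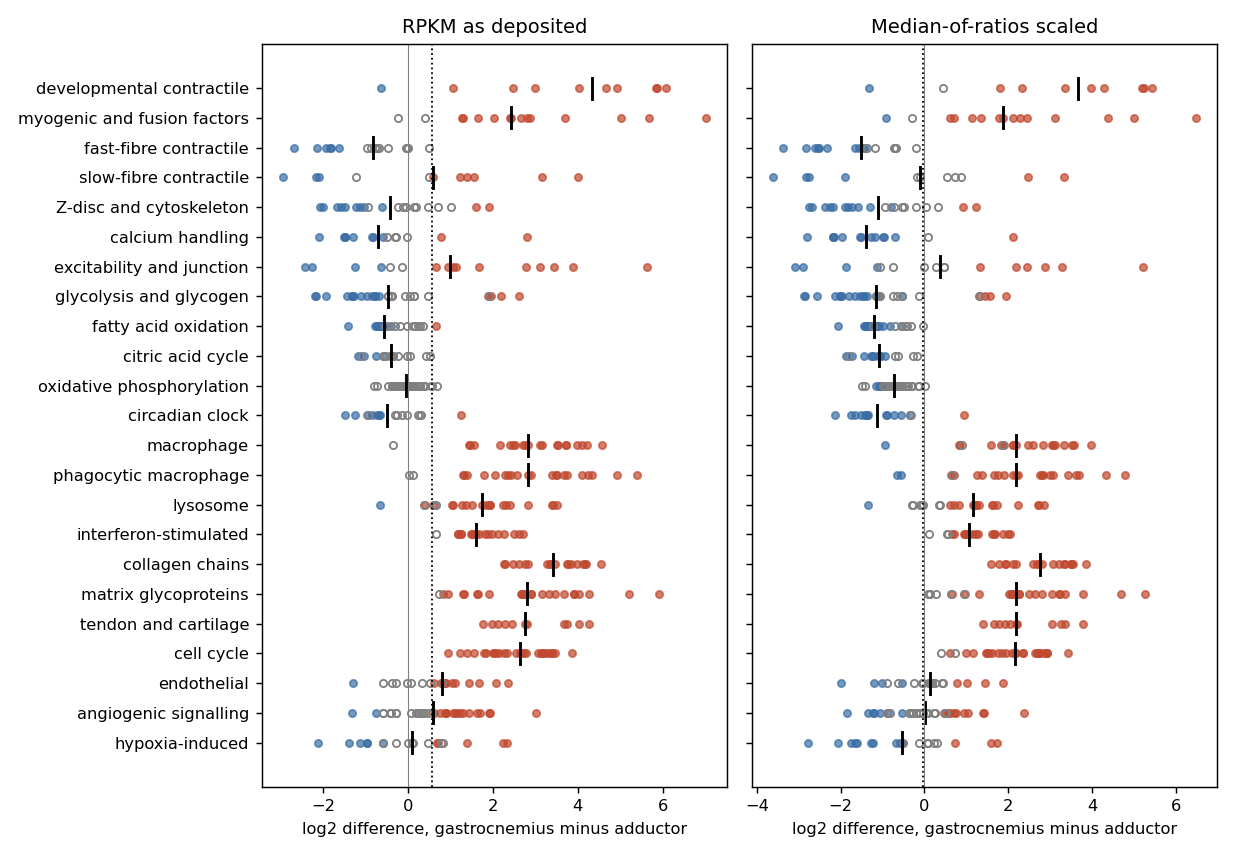
Log2 difference between gastrocnemius and adductor for every tested member of 23 gene lists (points), on RPKM (left) and after scaling (right), red where called higher, blue where called lower and open grey where not called, with a black bar at each list's median and a dotted line at the median of all 12382 genes. Collagen and cell cycle genes lie to the right on both scales. Oxidative phosphorylation moves from around 0 to below it, while the median of all genes moves from 0.55 to -0.04.

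The same contrast in control mice gave 7807 called genes (63.1%), and no gene's muscle effect was called different between diabetic and control mice. Of the 7051 genes called in diabetic mice, 7027 (99.66%) had the same sign in control mice. By limma on RPKM the difference of the muscle effects was called for 0 genes (0%). Before adjustment 154 genes were under 0.05, fewer than chance alone gives at that limit, and the lowest adjusted p was 0.999844. The library sets stayed in the spread of this fit, and with terms for them 582 genes were under 0.05. In control mice libraries 1 to 3 of each muscle were of the first set and 4 to 6 of the second. A gene not called is therefore not shown to behave alike in both mouse groups. The difference was called for 0 genes under every alternative tried. The 5 genes with the smallest p for this difference were Figf, Igfn1, Nnt, Trib2 and Mir27a. Figf differed by -0.75 in diabetic and 0.28 in control mice (difference -1.03 ± 0.26), and Igfn1, a muscle Z-disc protein, by -2.33 and 0.00 (difference -2.34 ± 0.63). Nnt, a mitochondrial enzyme that makes NADPH, differed by -0.76 and 0.39 (difference -1.16 ± 0.32), from 18 to 47.2 RPKM (median 36.6) in adductor and 12.8 to 31.6 RPKM (median 22.2) in gastrocnemius of diabetic mice. For Myog the muscle effect was 5.02 and 4.97, for Col1a1 4.53 and 5.0, and for Vegfa -0.58 and -1.19, in diabetic and control mice in turn.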

How the data were processed

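Poly(A) RNA of 24 mouse muscle samples was sequenced, and 12 diabetic libraries are described here. The authors deposited RPKM per RefSeq transcript, counted over exons with HOMER, per the file headers. TopHat, HOMER and the mm9 build are named in the submitters' processing notes without versions. The treatment of reads with several matches, and of strand, is not given in the sources used here, and the protocol and the design text name different sequencers. The authors' file also holds transcript lengths, an annotation value in another unit than expression, used to recover reads.

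For each symbol the transcript of highest mean RPKM was kept. limma 3.58.1 in R 4.3.3 was fitted to log2(RPKM + 0.5) of all 24 libraries with 4 group means and an intensity trend. The scaled values are RPKM divided by size factors from 12754 genes above 0 in every library. Reads recovered from RPKM, length and total were whole within 0.01 for 99.974% of values above 0, and voom on them called 7066 genes. The 12 diabetic libraries held 7.13 to 15.4 M reads, which bounds precision for low genes. No 2 libraries of a muscle agreed within sampling noise.

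The members and gene lists were chosen with earlier results of these data known. The text names the 12 genes furthest up and the 12 furthest down (called on both scales, with 5 RPKM or more on average in one muscle), the 10 most abundant of each muscle, up to 3 of smallest p in each of 47 lists (mean of at least 2 RPKM), a short fixed set, and the 5 of smallest p for the difference between mouse groups, 182 in all, of which some are not reported here. Replicate numbers in the titles were taken as pairs because same-numbered muscles deviated together (r of 0.254 to 0.712 for the 6 diabetic pairs, 0.0181 to 0.627 within library sets). The first range includes the library sets, since both muscles of a number are of 1 set, so pairing also removes the difference between sets. Numbers 2 and 3 correlated more with another number (0.468 and 0.588) than with their own. The labels do not state the pairing. A further 36 genes outside the rule were named in the report after their values were seen. Of 834 listed genes, 828 were matched to annotated transcripts, and for 90 of them 20% or more of the 31-base words occur in other genes. Alternatives changed the scaling, pseudocount, filter, transcript, test, pairing, library set or libraries. The fit was tested on simulated data. Promoters are from RefSeq (GRCm38.p6), while positions of genes are in mm9; 9638 of 12382 tested genes matched a promoter.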

Additional observations from a re-analysis of the deposited data

Results flagged for a closer look

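Each muscle's 6 libraries were searched, for the 182 named genes, for a highest or lowest library set apart from the other 5 by more than Dixon's 95% limit on the log2 scale. Chance alone gives about 1 such group in 20, and 47 were found in 364 groups. Gastrocnemius library 2 accounted for 27 of the 47. It was set apart on the low side, in RPKM, for Acta2 45.7, C1qb 141, C1qc 107, Cdkn1a 55.9, Cxcl16 10.0, Fkbp10 13.9, Gm7325 7.45, Mfap5 32.6, Ms4a7 21.7 and Myl4 206. The same held for Myog 46.2, Pdia6 19, Plvap 11.8, Thy1 17.3, Timp1 11.1, Tmem8c 39.8, Tnnt2 51.6, Trem2 23.5 and Tyrobp 43.6. It was set apart on the high side for Acacb 24.9, Actn3 2025, Amy1 9.47, Aqp4 4.46, Cacna1s 177, Camk2a 57.2, Myh4 3266 and Wnk2 12.1 RPKM. The low genes are among those called higher in gastrocnemius and the high ones among those called lower. Without it the differences of Tmem8c, Myog and Myh4 on RPKM were 7.39, 5.32 and -2.21, against 7.02, 5.02 and -1.93 with it. In adductor library 1 the genes set apart, in RPKM, were Aqp4 3.34 (lowest), Creld2 3.83 (highest), Hif1a 2.64 (lowest), Mir27a 0.906 (highest), Mylk4 78.7 (lowest), Nnt 18 (lowest), Pgm1 0.287 (lowest), Psmb1 156 (highest) and Psmb7 252 (highest). In adductor library 4 the genes set apart, in RPKM, were Col1a1 113 (highest), Myl6b 5.84 (lowest) and Tnni1 34.0 (lowest). In adductor library 5 the genes set apart, in RPKM, were Fosl2 3.01 (lowest), Irx5 5.48 (highest), Mmp13 0.210 (highest) and Nrp1 25.9 (highest). In adductor library 6 the gene set apart was Casq2 12.8 (highest), in RPKM. In gastrocnemius library 5 the genes set apart, in RPKM, were Myom3 17.0 (lowest) and Psmb7 73.5 (lowest). In gastrocnemius library 6 the gene set apart was Krt18 5.51 (highest), in RPKM. Mir27a was listed at 0 in the other 5 adductor libraries, and Krt18, a keratin, was at 1.73 to 2.34 RPKM in those of gastrocnemius. No gene's muscle effect was called different between diabetic and control mice.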

How the results depend on the processing

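Scaling moved the direction counts most. Genes called higher numbered 5958 on RPKM, 3376 after median-of-ratios scaling, 3873 without the 20 most abundant transcripts, 3035 after quantile normalization and 3623 in the second library set alone. Genes called lower numbered 1093, then 3284, 2434 and 3562 under the 3 scalings, and 4401 with median-of-ratios scaling and the replicate block. With the replicate block on RPKM, which pairs same-numbered muscles, 8498 genes were called in place of 7051, and beside the values given in the report it changed the call of 13 of 182 named genes, Lipe losing it and 12 gaining it. Terms for the library set, without pairs, called 8643 genes. Atp5o, Flt1, Hbb-b1, Tnni2, Tnnt3 and Tpm1 gained a call in both fits. How far the calls with pairing come from the library sets was not tested. Leaving out 1 library gave 6531 to 7242 calls, 5475 to 6256 higher and 946 to 1226 lower. The voom fit on recovered reads called 7066, pseudocounts of 0.1 and 1 called 7042 and 7048, no filter called 8769 of 21039, a 2 RPKM filter 6189 of 10857, and the longest transcripts 6993. Leaving out gastrocnemius libraries 3 and 4 together, and the block after scaling, were chosen after seeing the data, and the first called 5933. Of the 154 named genes called on RPKM, 146 kept call and direction after scaling, 133 in the second set and 152 in the first. The log2 difference changed sign in genes not called on RPKM, and in the called genes Acads and Lipe after scaling and Lipe and Pparg in the second set. After scaling, with or without the replicate block this held for Acads (-0.031), Atp5o (-0.13), Cma1 (-0.21), Cox5b (-0.16), Lipe (-0.0074), Mir6236 (-0.68), Mylpf (-0.20), Psmb1 (-0.040), Rn45s (-0.58), S100a9 (-0.14) and Tpsb2 (-0.21). Without the 20 most abundant transcripts this held for Cma1 (-0.050), Mir6236 (-0.49), Mylpf (-0.016), Rn45s (-0.40), S100a9 (-0.036) and Tpsb2 (-0.050). After quantile normalization this held for Acta1 (0.38), Atp5o (-0.030), Cma1 (-0.34), Cox5b (-0.030), Myl1 (0.75), S100a9 (-0.45) and Tpsb2 (-0.29). With terms for the set this held for Mir6236 (-0.78), Myl1 (0.13) and Rn45s (-0.76). In the first set this held for Kdr (0.17), Mir6236 (-0.97), Myl1 (0.27), Rn45s (-0.78) and Trib2 (0.024). In the second set this held for Adipoq (-0.53), Krt18 (2.24), Lipe (-0.080), Myh2 (0.52) and Pparg (-0.30). Without gastrocnemius libraries 3 and 4 this held for Acta1 (0.24), Hbb-b2 (0.0032), Myl1 (0.18) and Tnnc2 (0.10). With the longest transcript this held for Myl1 (0.048). With 1 library left out the range crossed 0 for Acta1 from -0.25 to 0.056, Gapdh from -1.26 to 0.68, Krt18 from -0.85 to 0.34, Mir6236 from -0.28 to 0.26, Myl1 from -0.14 to 0.12 and Rn45s from -0.17 to 0.27. The causes were not tested.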

Other observations

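Immediate early genes are switched on quickly when cells are stimulated. Of 20 tested, 12 were called higher and 1 lower on RPKM, and 8 and 2 after scaling, and the lower call on RPKM was lost without adductor library 2, 5 or 6 or gastrocnemius library 1, 3 or 4. Of all genes 48.1% were called higher on RPKM and 27.3% after scaling. Egr1 was at 1.6 to 7.91 RPKM (median 3.93) in adductor and 8.65 to 32 RPKM (median 25.9) in gastrocnemius, a difference of 2.41 ± 0.44 on RPKM and 1.77 ± 0.40 after scaling, and Jund was 2.05 ± 0.34 on RPKM and 1.38 ± 0.36 after scaling and Fosl2 1.16 ± 0.21 on RPKM and 0.53 ± 0.15 after scaling. Of 9 Schwann cell and nerve genes 6 were called higher on RPKM and 3 after scaling (2 lower after scaling with pairing). Ngfr, the low-affinity neurotrophin receptor of injured nerve, was at 0.436 ± 0.186 RPKM in adductor and 3.46 ± 1.59 in gastrocnemius (1.99 ± 0.33 on RPKM and 1.52 ± 0.28 after scaling), and the myelin genes Pmp22 and Cnp were 1.46 ± 0.20 on RPKM and 0.79 ± 0.17 after scaling and 1.25 ± 0.18 on RPKM and 0.62 ± 0.15 after scaling.

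Of 6 red cell genes none was called higher on either scale. On RPKM 1 was called lower, Bpgm, a red cell enzyme also present in muscle (-1.57 ± 0.38 on RPKM and -2.22 ± 0.43 after scaling), and 2 after scaling (2 on RPKM and 5 after scaling with pairing). The globin gene Hbb-b1 was at 21.5 to 92.4 RPKM (median 35.7) in adductor and 9.09 to 67.9 RPKM (median 17.8) in gastrocnemius, and was called lower after scaling (adjusted p = 0.044) and with pairing on RPKM (adjusted p = 0.028). Its copy Hbb-b2 was not called on RPKM or after scaling (-0.63 ± 0.61 on RPKM and -1.19 ± 0.66 after scaling), and with pairing it was called lower after scaling (adjusted p = 0.0047). Krt18 was at 44.6 and 18.2 RPKM in adductor libraries 1 and 4, at 6.69 in library 2 and at 0.231 to 0.402 in the other 3. Rn45s and Mir6236 differed in opposite directions in the 2 library sets, at -0.78 and -0.97 in the first and 1.88 and 1.97 in the second. Mir1906-2, the last of the 12 genes furthest up, was at 0.637 ± 0.987 RPKM in adductor and 37.0 ± 17.4 in gastrocnemius, and Mir1906-1 is listed at the same position with the same fitted values, so they cannot be counted as separate genes.

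Of 16 complement genes 10 were called higher and 1 lower on RPKM, and 9 and 1 after scaling. Of 23 genes of TGF-beta and activin signalling 11 were called higher and 2 lower on RPKM (1 lower without adductor library 1 or 6 or gastrocnemius library 1, 5 or 6), and 6 and 7 after scaling. The shares of the TGF-beta and activin genes were near those of all genes (48.1% higher and 8.83% lower on RPKM, 27.3% and 26.5% after scaling). Gdf15, a stress-induced member, was 1.84 ± 0.28 on RPKM and 1.46 ± 0.27 after scaling. Of 14 heat shock and stress genes 3 were called higher and 2 lower on RPKM and 2 and 4 after scaling. With pairing 6 and 4 were called higher on the 2 scales, and without adductor library 5 or 6 or gastrocnemius library 1, 3 or 5 there was 1 lower on RPKM. Dnajb1 was at 1.34 ± 0.23 on RPKM and 0.73 ± 0.18 after scaling and Hsph1 at -0.61 ± 0.19 on RPKM and -1.27 ± 0.19 after scaling. Of 13 fat cell genes 4 were called higher on RPKM and 3 lower after scaling. The 4 became 1 without adductor library 6, 2 without adductor library 1, 2, 3 or 4 or gastrocnemius library 1, 3 or 4, and 0 in the second library set. Thrsp, Pparg and Lipe were called higher on RPKM (1.6, 0.88 and 0.65) and not called after scaling (0.95, 0.30 and -0.01). Lipe lost its call on RPKM in 10 of 12 fits with 1 library left out and Pparg in 5, and with pairing Thrsp was called higher after scaling (adjusted p = 0.032). Of 7 neutrophil genes 3 and 2 were called higher on the 2 scales, of 4 lymphocyte genes 4 and 3, of 6 mast and dendritic cell genes 2 and 2, and of 4 epithelial genes 1 and 0 (2 on RPKM without adductor library 1 or gastrocnemius library 2). None of these 4 lists had a tested gene called lower. Most of their members were too low to be tested. The table held 13 neutrophil, 19 lymphocyte, 12 mast and dendritic and 11 epithelial genes, of which 7, 4, 6 and 4 passed the filter. A gene that passes through gastrocnemius libraries alone can hardly be called lower there, so these counts lean towards higher.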
